A study of Mus musculus with 384 samples.

Results

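The levels of 10 genes of the bone morphogenetic protein (BMP) pathway, of 49585 genes counted, were followed through single mouse mammary cells of 3 sort gates. The genes were chosen by name, with earlier results of these data known. They are the ligand genes Bmp2, Bmp4 and Bmp7, the receptor genes Bmpr1a, Bmpr1b and Bmpr2, and the target genes Id1, Id2, Id3 and Id4. All 10 had reads in the table. Their rows were taken from every single-cell well with at least 50000 reads on genes, spike-ins not counted, and from 1 well of 50 cells in each gate.

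BMPs are secreted ligands of the TGF-beta superfamily. They bind complexes of type I receptors, such as those encoded by Bmpr1a and Bmpr1b, and type II receptors, such as that encoded by Bmpr2, and the activated type I receptor phosphorylates SMAD1, SMAD5 and SMAD9, which enter the nucleus with SMAD4. The Id genes are direct targets of these SMADs in many cell types, and Id proteins lack a DNA-binding region and hold E proteins away from DNA. In the embryo, BMP signalling takes part in the exchange between mammary bud epithelium and the mesenchyme around it, and ID4 is known as a regulator of basal cells of the adult gland.

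The study asked how Lgr5-positive embryonic mammary progenitors relate to the basal and luminal lineages of the adult gland, with Smart-seq2, which reads polyadenylated transcripts of single cells over their whole length, on 1 plate of 384 wells. Embryonic cells carried the Lgr5-EGFP-IRES-CreER allele, a green reporter with an inducible Cre under the Lgr5 gene, and came from the whole skin, mammary buds included, of female embryos at embryonic day 14. They were sorted as high for CD49f and for the Lgr5 reporter. Adult cells are labelled Rosa-tdTomato, a red reporter allele, and came from dissected glands without lymph nodes. Basal cells were sorted as CD24+CD29Hi and luminal cells as CD24+CD29Lo. In all gates cells with CD45, CD31 or CD140a were sorted out, and no treatment is given. The age and sex of the adults, the number of animals and any pooling are not given in the labels, so each gate counts as 1 sample and its wells as parts of it. No replicate check was possible for a difference between gates, and none was tested.

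Of 376 single-cell wells, 347 had enough reads, in similar numbers per gate. Embryonic wells held 52687 to 1836609 reads on genes with a median of 697578, basal wells 52500 to 1466484 with a median of 450196, and luminal wells 63571 to 1595858 with a median of 525176. The wells of 50 cells held 532820 to 621792 reads, 4 wells without a cell held 34 to 563 reads and no read of a BMP gene, and 1 well with conflicting labels entered no comparison. Each list of defining markers had its highest summed level, in CPM (counts per 1000000 gene reads), in the gate of its name. In embryonic, basal and luminal wells, the 8 basal markers summed to 1582, 16710.5 and 181.0 CPM, the 6 luminal markers to 1547, 2975 and 19047 CPM and the 6 mammary bud markers to 2614, 290.4 and 74.2 CPM. The bud markers include Lgr5, at 549.9 CPM in embryonic wells, whose reporter was used in the sort, so its part in that sum is no separate check. Markers reached 5 CPM outside their gate too, as did all 6 luminal markers in the embryonic and basal gates, 6 of 8 basal markers in the luminal gate and 5 of 6 bud markers in the basal gate. Single wells stood apart, however. By Spearman correlation over 10315 genes, 1 embryonic, 10 basal and 3 luminal wells matched the well of 50 cells of another gate better than their own, and 8 of the 10 basal ones matched luminal. At least 3 of 9 fibroblast markers were detected in 22 embryonic and 6 basal wells, and at least 3 of 8 endothelial markers in 7 basal wells. Levels without these wells are given below for several genes.

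A gate's level is the sum of a gene's reads over its wells, scaled as CPM to all reads on genes, with an exact 95% Poisson interval. Intervals cover counting error only, and reads amplified without molecular identifiers are not separate molecules. In a sum, fewer cells with a transcript and less transcript per cell cannot be told apart, which holds for the wells of 50 cells too. Every gene was at 0 reads in at least 1 well of every gate, so the median and the highest well are given below.

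Levels of different genes were compared per kilobase of exon (CPM per kb). In the embryonic gate Id3 was the most abundant of the 10 genes at 474 CPM per kb, followed by Id2 at 112.1, Id1 at 91.4, Bmp7 at 34.5 and Bmpr1a at 27.7. Id4, Bmpr2 and Bmp4 lay close together at 12.9, 12.3 and 12.03 CPM per kb, before Bmp2 at 7.05 and Bmpr1b at 0.237. The basal order was also led by Id3, at 100.7 CPM per kb, but Id4 came next at 62.1, near Id2 at 58.8. In the luminal gate no gene passed the 43.4 CPM per kb of Id3, and Bmp4, Bmp7 and Bmpr1b were each under 0.3. In wells of 50 cells Id3 came first in the embryonic gate, at 682 CPM per kb, and Id4 in the basal gate, at 112.2 against 94.6 for Id3, while in the luminal gate Id2 came first, at 16.9 against 12.6 for Id3. Id1 was lower there in the embryonic gate, at 18.02 CPM per kb.

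**Figure D1:**
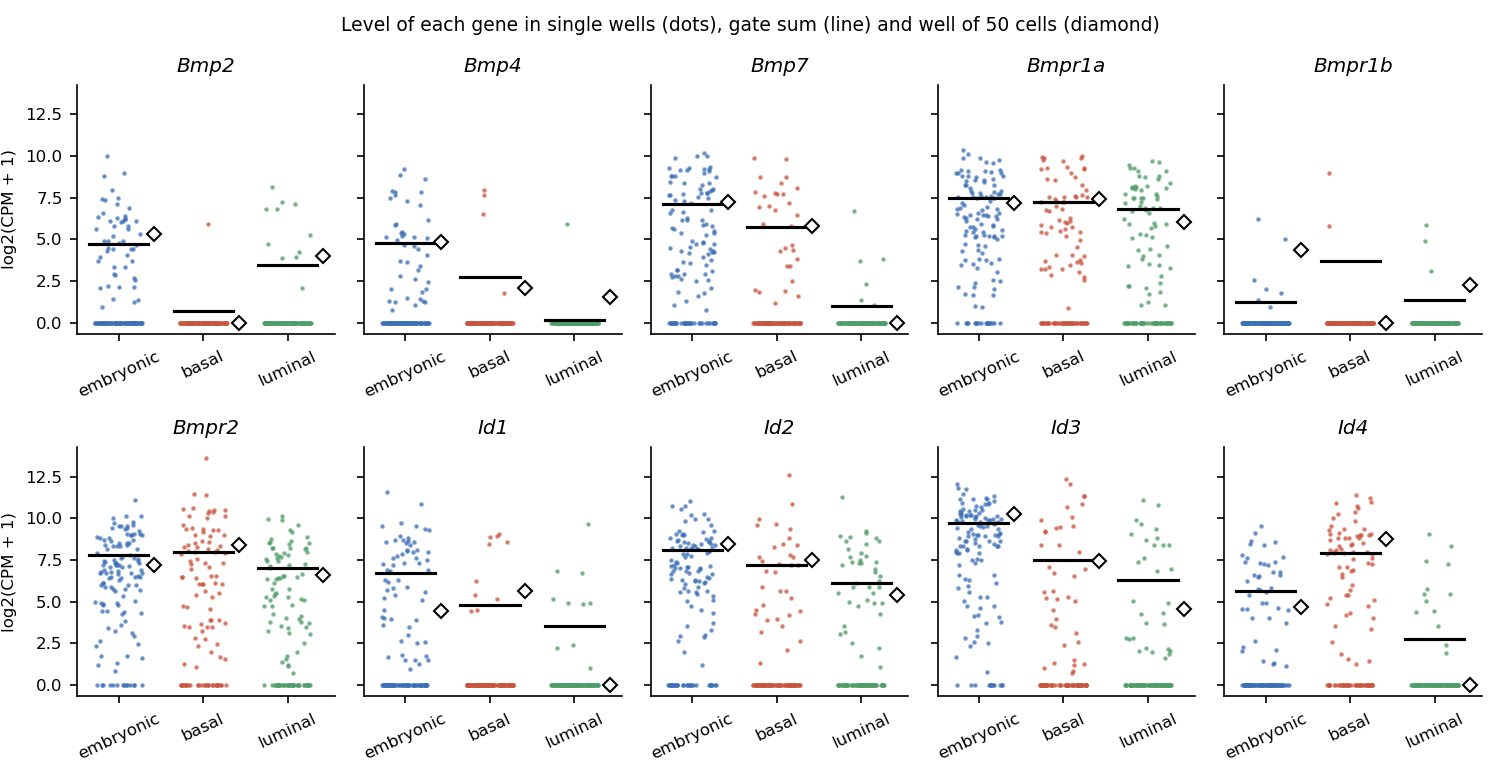
Level of each of the 10 genes, as log2(CPM + 1), in single wells (dots), in the sum over a gate's wells (black line) and in the gate's well of 50 cells (diamond). Id3 is at 849.8 CPM in the embryonic sum against 180.3 in the basal and 77.7 in the luminal sum, Id4 is at 239 CPM in the basal sum, and Bmp4 and Bmp7 are near 0 in luminal wells.

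All 3 ligand genes had their highest level in the embryonic gate. Positions are those of GENCODE M21 on GRCm38. Bmp7 (ENSMUSG00000008999.7, chr2:172868012-172940321, minus strand) was the most abundant ligand, at 138.6 CPM (136.1 to 141), with reads in 91 embryonic wells (71.7%), a median of 18.2 CPM and a highest well of 1146 CPM. In the basal gate it was at 51.6 CPM (49.8 to 53.6), with reads in 31 wells (28.7%), a median of 0 and a highest well of 927 CPM. In the luminal gate 6 wells (5.36%) had a Bmp7 read and the level was 1.04 CPM (0.811 to 1.31). Embryonic and basal wells thus overlapped over most of their range, while nearly all luminal wells had no read of this gene. Bmp7 in the wells of 50 cells was at 151, 54.8 and 0 CPM in the same order. Bmp7 was 2.68-fold higher (interval 2.58 to 2.80) in embryonic than in basal cells, and 2.76-fold higher (1.84 to 4.23) in the wells of 50 cells. Against luminal cells it was 133.4-fold higher (105.7 to 171) in embryonic cells and 49.7-fold higher (39.3 to 63.8) in basal cells. Without the wells that match another gate these folds were 285 and 114.4. The luminal well of 50 cells had no read, and with 3 reads put in its place the embryonic well was at least 26.8-fold and the basal well at least 9.74-fold higher.

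Bmp4 (ENSMUSG00000021835.14, chr14:46383520-46390669, minus strand), a ligand that mesenchyme and some epithelia produce, was at 27.04 CPM (25.98 to 28.1) in the embryonic gate, where 43 wells (33.9%) had a read, with a median of 0 and a highest well of 590 CPM. The basal level was 5.83 CPM (5.21 to 6.51), from 4 wells. One basal well held 79.2% of those reads, and without it the level was 1.24 CPM. In the luminal gate 10 reads in 1 well, which matched another gate, gave 0.146 CPM. In the wells of 50 cells Bmp4 was at 27.3, 3.32 and 1.88 CPM. Embryonic cells were 4.64-fold higher (4.13 to 5.23) than basal cells, and 19.7-fold higher without the top well of each gate. Against luminal cells they were 185-fold higher (100.3 to 386), and 14.6-fold higher (2.28 to 609) on the 17 and 1 reads in the wells of 50 cells. Basal cells were 39.8-fold (21.4 to 83.9) above luminal cells, on 318 and 10 reads, and 1.77-fold (0.0922 to 104.4) on the 2 and 1 reads in the wells of 50 cells. In the embryonic gate the 22 wells with fibroblast markers held 29.2% of the Bmp4 reads on 16.7% of all reads, at 47.3 CPM against 22.98 in the other embryonic wells. All 9 fibroblast markers reached 5 CPM in the embryonic gate, with a summed level of 3937 CPM that ran from 0 to 93958 CPM over wells. The sum was 2516 CPM in the basal gate, where 5 markers reached 5 CPM and Dpt was at 0. Postn at 1475 CPM and Dcn at 924 CPM made up most of the basal sum, while Col1a1 was at 0.788 CPM there. In the luminal gate the sum was 75.8 CPM, 3 markers reached 5 CPM and Lum was at 0. Without the marked wells of both gates Bmp4 was 3.69-fold higher in embryonic than in basal cells, and 2.95-fold higher with wells that match another gate or hold endothelial markers left out as well.

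Bmp2 (ENSMUSG00000027358.6, chr2:133552159-133562885, plus strand) was at 25.1 CPM (24.0 to 26.1) in the embryonic gate, with reads in 53 wells (41.7%), a median of 0 and a highest well of 1044 CPM. The luminal level was 10.1 CPM (9.40 to 10.9), from 11 wells (9.82%), and 1 well held 59.5% of it. In the basal gate all 36 reads came from 1 well that matched another gate, a level of 0.660 CPM. Bmp2 thus had its second highest level in luminal cells, while Bmp4 and Bmp7 had theirs in basal cells. This order was repeated in the wells of 50 cells, at 38.6, 15.0 and 0 CPM for embryonic, luminal and basal. Embryonic cells were 2.47-fold higher (2.27 to 2.70) than luminal cells, and 5.02-fold higher without the top wells. Against basal cells they were 37.98-fold higher (27.3 to 54.4), and luminal cells were 15.4-fold higher than basal cells. With 3 reads in place of 0 in the basal well of 50 cells, Bmp2 was at least 7.74-fold higher in the embryonic well.

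The type I receptor gene Bmpr1a (ENSMUSG00000021796.14, chr14:34410734-34503341, minus strand) and the type II receptor gene Bmpr2 (ENSMUSG00000067336.6, chr1:59763400-59879014, plus strand) had reads in most wells of all 3 gates. Bmpr1a was at 176 CPM in embryonic cells, 148 in basal cells and 112.6 in luminal cells, with reads in 85.04%, 60.2% and 59.8% of wells. Its median wells were at 60.6, 11.1 and 9.17 CPM and its highest at 1309, 1028 and 831 CPM, so the gates overlapped over nearly their whole range. The embryonic level was 1.19-fold the basal level (1.15 to 1.22) and 1.56-fold the luminal level (1.52 to 1.61). In the wells of 50 cells the order of the first pair was turned, with 143 CPM (114.9 to 176) in embryonic and 169 (138 to 206) in basal cells. Luminal cells were again lowest there at 65.7 (45.8 to 91.4), with embryonic cells 2.18-fold (1.46 to 3.32) and basal cells 2.58-fold (1.74 to 3.90) above them. An antisense model, Gm17110, shares 290 exon bases with Bmpr1a and had 186 reads against 31629, and the strand mode of the counting is not given in the sources used here.

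Bmpr2 was at 220.4 CPM in embryonic cells, 256 in basal cells and 129.9 in luminal cells. Reads were found in 88.98%, 74.1% and 66.96% of wells, with medians of 103.7, 57.1 and 16.02 CPM. One basal well reached 12476 CPM, against highest wells of 2176 and 1142 CPM in the embryonic and luminal gates. Basal cells were 1.16-fold above embryonic cells (1.14 to 1.19) and 1.97-fold above luminal cells (1.92 to 2.02) in the sums, or 2.04-fold without the top well of each gate and 2.17-fold without the wells that match another gate. In the wells of 50 cells the basal level of 339 CPM was 2.29-fold the embryonic (1.78 to 2.96) and 3.54-fold the luminal level (2.59 to 4.91). Basal cells thus had the highest Bmpr2 sum in both kinds of library, although fewer basal than embryonic wells had a read.

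The other type I receptor gene, Bmpr1b (ENSMUSG00000052430.15, chr3:141837136-142169425, minus strand), was near 0 in all gates. Its sums were 1.41 CPM in embryonic cells, 12.2 in basal cells and 1.58 in luminal cells, from 7, 2 and 3 wells with a read. Both basal wells matched another gate, and 1 of them held 94.5% of the reads. Without the wells that match another gate the basal level was 0 against 1.41 CPM in embryonic and 1.60 in luminal cells. The wells of 50 cells gave 19.3 CPM (9.97 to 33.7) in embryonic cells, 0 in basal cells and 3.75 in luminal cells. The 8.67-fold higher basal sum (7.16 to 10.6) was therefore in the other direction in the wells of 50 cells, where embryonic cells were at least 3.87-fold higher.

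The Id genes code for small inhibitors of basic helix-loop-helix factors. The 250 bases before the start sites of members were searched for the GC-rich SMAD1 and SMAD5 motif GGCGCC, which reads the same on both strands. RefSeq promoters (GRCm38.p6) were at hand for 7 of the 10 genes. Id1, Bmp2 and Bmp7 had none at hand and were not searched. The motif occurred in 3149 of 32851 promoters of that length (9.59%). Id2, on chromosome 12, Id4, on chromosome 13, Bmpr1a and Bmpr2 had 1 match each, and Id3, Bmp4 and Bmpr1b had none. A match is only a run of letters, and no binding was measured. The windows of Id4 (chr13:48260866-48261115, plus strand) and Bmp4 (chr14:46390670-46390919, minus strand) are shown because Id4 was highest in basal and Bmp4 in embryonic cells. For Id2 the stretch outside annotated exons (chr12:25096254-25096342, minus strand) is shown. The window of Id3 lies inside an exon of a longer GENCODE model and is not shown. Sequences are given 5′ to 3′ with the motif in capitals.
Id4: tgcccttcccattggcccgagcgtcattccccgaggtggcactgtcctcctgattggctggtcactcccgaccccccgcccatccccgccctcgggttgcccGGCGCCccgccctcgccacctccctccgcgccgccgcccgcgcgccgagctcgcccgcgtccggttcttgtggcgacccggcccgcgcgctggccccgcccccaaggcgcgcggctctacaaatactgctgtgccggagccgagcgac
Id2: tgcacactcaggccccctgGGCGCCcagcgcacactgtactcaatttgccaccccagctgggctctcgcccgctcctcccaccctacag
Bmp4: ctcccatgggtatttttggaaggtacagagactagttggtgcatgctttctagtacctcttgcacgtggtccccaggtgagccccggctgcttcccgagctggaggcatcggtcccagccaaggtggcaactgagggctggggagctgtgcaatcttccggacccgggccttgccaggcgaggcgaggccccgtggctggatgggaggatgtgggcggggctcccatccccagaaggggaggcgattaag
The start of the motif is 148 bases before the start site in Id4 and 231 bases before it in Id2.

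Id3 (ENSMUSG00000007872.3, chr4:136143497-136145755, plus strand) had the highest level of the set and was highest in embryonic cells. In the embryonic gate 90.6% of wells had a read, with a median of 450.5 CPM, a highest well of 4252 CPM and a sum of 849.8 CPM (844 to 856). The basal sum was 180.3 CPM (177 to 184), from 40 wells (37.0%), with a median of 0 and a highest well of 5341 CPM. The luminal sum was 77.7 CPM (75.6 to 79.8), from 31 wells (27.7%), with a median of 0 and a highest well of 2185 CPM. Most embryonic wells thus held Id3, while most adult wells held no read and a few reached embryonic levels. Id3 was at 1221, 169 and 22.5 CPM in the wells of 50 cells. Embryonic cells were 4.71-fold (4.62 to 4.81) above basal and 10.9-fold (10.6 to 11.2) above luminal cells, and 7.20-fold (5.85 to 8.95) and 54.2-fold (30.8 to 105.4) in the wells of 50 cells.

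Id1 (ENSMUSG00000042745.9, chr2:152736251-152737410, plus strand) followed Id3 in the single wells. It was at 106.02 CPM (103.9 to 108.2) in the embryonic gate, with reads in 62 wells (48.8%), a median of 0 and a highest well of 3082 CPM. The basal level was 26.5 CPM (25.1 to 27.9), from 10 wells, and the luminal level 10.9 CPM (10.1 to 11.7), also from 10 wells, of which 1 held 70.6% of the reads. Embryonic cells were 4.005-fold (3.79 to 4.24) above basal and 9.74-fold (9.04 to 10.5) above luminal cells, or 29.8-fold without the top wells. The wells of 50 cells reversed the first of these: Id1 was at 20.9 CPM (11.1 to 35.8) in the embryonic and 49.8 CPM (33.6 to 71.1) in the basal well, 2.38-fold higher in basal (1.21 to 4.98), on 13 and 30 reads. The luminal well of 50 cells had no Id1 read. Fibroblast markers summed to 9366 CPM in the embryonic well of 50 cells against 3937 CPM in the single wells, and Id1 was at 34.4 CPM in embryonic wells with these markers against 120.4 CPM in the others. The part of cells with fibroblast markers in the reversal was not tested.

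Adult basal Id1 and Id3 came largely from few wells. The 7 basal wells with endothelial markers held 50.1% of the basal Id1 reads and 44.9% of the basal Id3 reads on 5.37% of all basal reads. Their level was 247 CPM of Id1 and 1507 CPM of Id3, against 13.9 and 104.98 CPM in the other basal wells. All 8 endothelial markers reached 5 CPM in the basal gate, with a summed level of 532 CPM that ran from 0 to 11316 CPM over wells, against 24.1 CPM in the embryonic and 13.7 CPM in the luminal gate. Emcn and Tie1 were at 0 in embryonic wells, and Kdr, Emcn and Egfl7 in luminal wells. Without the 7 wells embryonic cells were 7.60-fold above basal cells in Id1 and 8.09-fold in Id3. The basal excess over luminal cells, 2.43-fold for Id1 and 2.32-fold for Id3, was then 1.28-fold and 1.35-fold, under the limit of 2-fold. Without the top well of each gate instead, the Id1 excess was 5.87-fold.

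Id2 (ENSMUSG00000020644.8, chr12:25093799-25097140, minus strand) had a flatter pattern. It was at 273 CPM (269.9 to 277) in embryonic cells, with reads in 96 wells (75.6%), a median of 97.98 and a highest well of 2066 CPM. Basal cells were at 143 CPM (140.2 to 147), from 35 wells (32.4%), and 1 well with 6279 CPM held 35.3% of the reads. Luminal cells were at 68.5 CPM (66.5 to 70.5), from 42 wells (37.5%), with a highest well of 2489.5 CPM. Both adult medians were 0. This order held in the wells of 50 cells, at 354, 183 and 41.3 CPM. Embryonic cells were 1.91-fold (1.86 to 1.96) above basal cells, just under 2-fold, and 2.71-fold above them without the top wells. Against luminal cells embryonic cells were 3.99-fold higher (3.87 to 4.12) and basal cells 2.09-fold higher (2.02 to 2.17), or 1.60-fold without the top wells. In the plate rows that held both adult gates (24 basal and 17 luminal wells) Id2 was lower in basal than in luminal cells, with a log2 ratio of -0.96.

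Id4 (ENSMUSG00000021379.1, chr13:48261228-48266026, plus strand) was the Id gene with its highest sum in basal cells. The basal sum was 239 CPM (235 to 243), with reads in 68 wells (62.96%), a median of 38.5 CPM and a highest well of 2656 CPM. Embryonic cells were at 49.6 CPM (48.1 to 51.05), from 43 wells (33.9%), with a median of 0 and a highest well of 743 CPM. Luminal cells were at 5.72 CPM (5.17 to 6.32), from 13 wells (11.6%), and the 3 luminal wells that matched another gate held 45.5% of these reads. The wells of 50 cells gave 24.1, 432 and 0 CPM for embryonic, basal and luminal. Basal cells were 4.82-fold (4.66 to 4.99) above embryonic cells, and 17.9-fold (10.7 to 32.5) in the wells of 50 cells. Embryonic cells were 8.67-fold (7.81 to 9.63) above luminal cells, or 15.8-fold without the wells that match another gate. Basal cells were 41.8-fold (37.8 to 46.3) above luminal cells, 85.6-fold without the wells that match another gate, and at least 76.7-fold in the wells of 50 cells. The 7 wells with endothelial markers held 0.460% of the basal Id4 reads. The antisense model A330033J07Rik, which shares 82 exon bases with Id4, had 54 reads against 17894.

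Counted over the 10 genes, 5 were at least 2-fold higher in embryonic than in basal cells (Bmp2, Bmp4, Bmp7, Id1 and Id3), where 34.7% of all 12808 measured genes were, and 2 were at least 2-fold higher in basal cells (Bmpr1b and Id4), where 20.04% of all genes were. The second share is at the background. Only genes at 5 CPM or more in either gate were counted. The 10 genes were chosen with earlier results of these data known, so a count above the background is a description and no test. Against luminal cells, 7 of the 9 measured members were at least 2-fold higher in embryonic cells, where 40.3% of 12679 genes were, and 0 were higher in luminal cells, where 18.2% were. Bmpr1b was under 5 CPM in both gates. Basal cells were at least 2-fold above luminal cells in 7 of 10 members, with 29.3% of 11885 genes as background, and luminal cells above basal cells in 1, Bmp2, with 22.1% as background. In the plate rows that held both adult gates 4 members were higher in basal and 2 in luminal cells. The log2 ratios of Id1, Id2 and Id3 there were -1.36, -0.96 and -0.75. No share over all genes is given for these rows, so the counts of 4 and 2 have no background. The Bmpr1b excess in basal cells rested wholly on wells that match another gate. The median log2 ratio of the members was 1.17, 2.91 and 1.21 in the 3 comparisons, against 0.38, 0.58 and 0.14 over all measured genes. With spike-in reads as the total, 8 members were higher in embryonic than in basal cells. In basal against luminal cells 4 were higher in basal cells. Of all genes, 8816 were then higher in embryonic than in basal cells and 1303 in basal cells. In basal against luminal cells 2165 genes were higher in basal and 4898 in luminal cells. The median over all genes moved to 1.68 and -0.66 in these comparisons.

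In the wells of 50 cells 5 of 10 members were at least 2-fold higher in embryonic than in basal cells (38.05% of all genes) and 3 in the other direction (31.4%), namely Bmpr2, Id1 and Id4. Against luminal cells 9 of 10 were higher in embryonic cells (44.6%) and 0 in luminal cells (22.8%). Of 8 measured, 7 were higher in basal than in luminal cells (41.5%) and 1, Bmp2, in luminal cells (27.4%). The comparisons share gates, so each was read on its own.

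**Figure D2:**
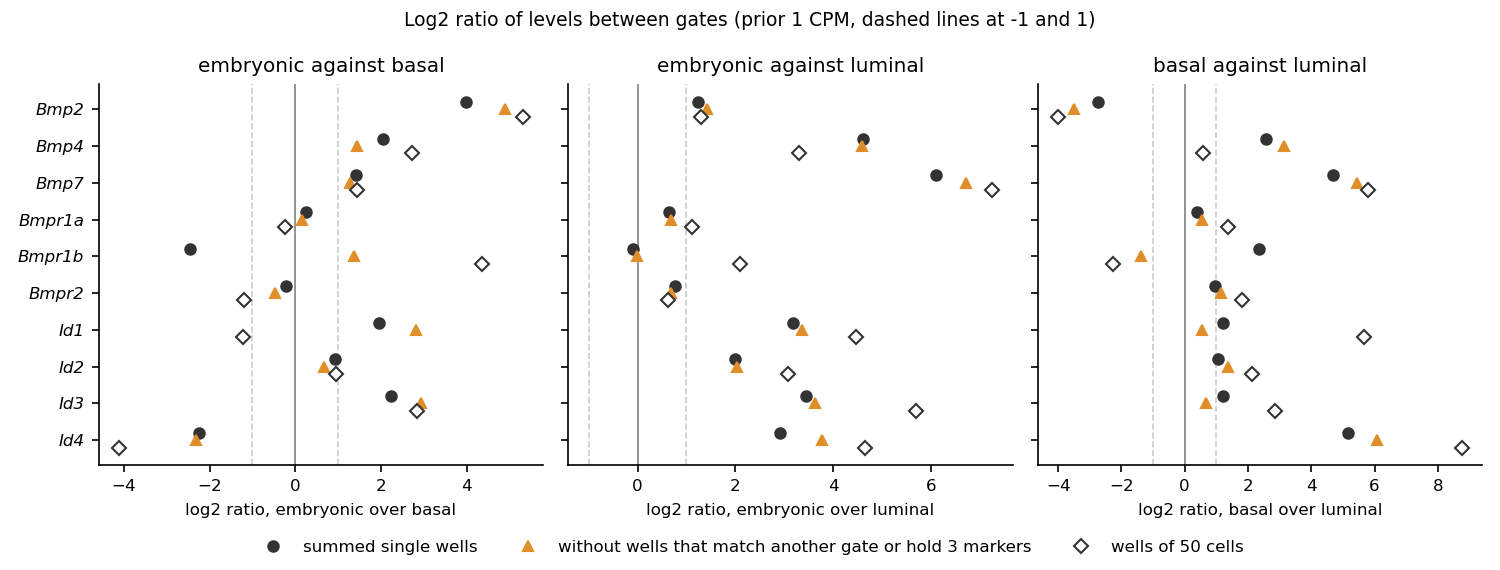
Log2 ratio of each gene's level (prior 1 CPM) in 3 comparisons of gates, from the summed single wells (filled circles), the same without wells that match another gate or hold at least 3 fibroblast or endothelial markers (triangles) and the wells of 50 cells (diamonds). Bmpr1b and Id1 lie on both sides of 0 in embryonic against basal, at -2.46 and 4.34 for Bmpr1b and at 1.96 and -1.21 for Id1, while Id4 is at -2.25 and -4.11.

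To compare how many cells held each transcript, every well was thinned at random to 50000 reads and a gene was called detected at 5 reads. Id3 was detected in 70.1% of embryonic wells (exact 95% interval 61.3% to 77.9%), 17.6% of basal wells (10.9% to 26.1%) and 13.4% of luminal wells (7.69% to 21.1%). Intervals cover the counting of wells within 1 sample and are no test between gates. Id4 was detected in 15.0%, 45.4% (35.8% to 55.2%) and 3.57% of the wells. Id2 was detected in 48.8% of embryonic wells, and in 16.7% of basal and 17.9% of luminal wells. Id1 was detected in 26.8%, 4.63% and 2.68%. The receptor genes differed less: Bmpr2 was detected in 54.3%, 41.7% and 32.1% and Bmpr1a in 42.5%, 26.9% and 33.04% of embryonic, basal and luminal wells. Among the ligands Bmp7 was detected in 33.1%, 12.96% and 0.893%, Bmp2 in 10.2%, 0% and 4.46% and Bmp4 in 9.45%, 1.85% and 0%. A count of 0 wells allows up to 3 wells, which is 2.78% of basal or 2.68% of luminal wells, and the exact upper bounds are 3.36% and 3.24%. Bmpr1b was detected in 1 of all 347 wells, a basal one. Before thinning, a read of Id3 was found in 90.6%, 37.0% and 27.7% of wells and a read of Id4 in 33.9%, 62.96% and 11.6%.

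**Figure D3:**
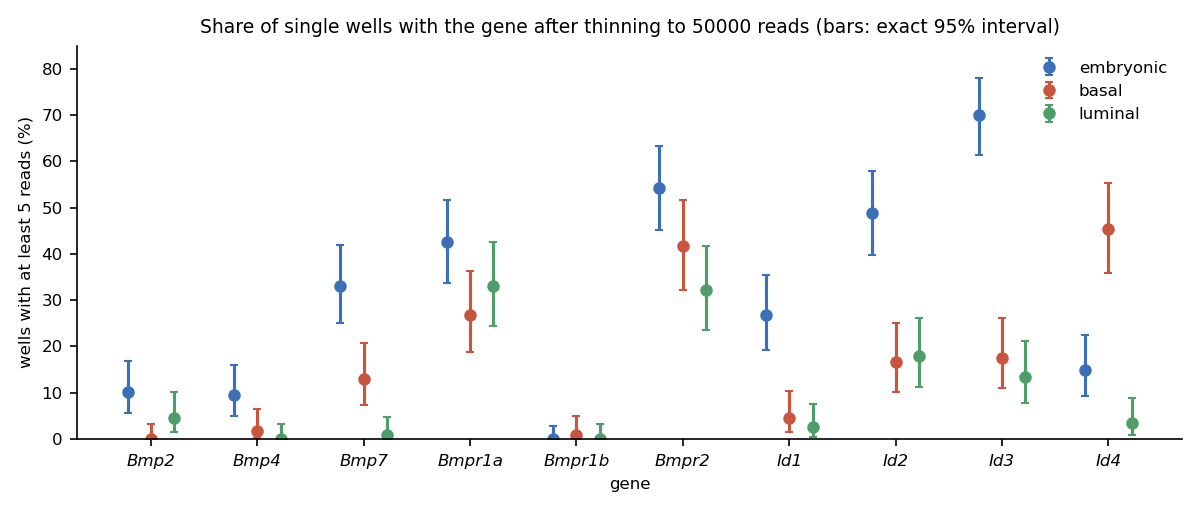
Share of single wells with at least 5 reads of each gene after thinning to 50000 reads, by gate, with exact 95% intervals. Id3 stands at 70.1% in embryonic wells and Id4 at 45.4% in basal wells, while Bmpr2 stands at 54.3%, 41.7% and 32.1% in embryonic, basal and luminal wells.

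Detection of several members in the same well was counted at the same depth. At least 1 Id gene was detected in 81.9% of embryonic, 60.2% of basal and 31.2% of luminal wells. At least 2 were detected in 68 embryonic (53.5%, 44.5% to 62.4%), 22 basal (20.4%, 13.2% to 29.2%) and 7 luminal wells (6.25%, 2.55% to 12.5%), and all 4 in 6 embryonic wells and in no adult well. Counts of the pairs differed between gates, as did the shares of the single genes. Whether genes shared wells more or less often than their single shares give was not tested. Of the 34 embryonic wells with Id1, 32 also had Id3. Id4 without Id3 was seen in 41 basal wells and in 2 embryonic and 2 luminal wells, and Id3 without Id4 in 72 embryonic, 11 basal and 13 luminal wells. Bmpr1a or Bmpr1b was detected together with Bmpr2 in 26 embryonic, 19 basal and 12 luminal wells, and at least 1 ligand in 61, 14 and 6 wells. Of the 61 embryonic wells with a ligand, 10 also had both receptor types. At 5 reads of 50000 many transcripts go undetected, so counts of wells with a gene are too low and counts of wells without one too high. With 1 read as the limit, no Id gene was detected in 4.72% of embryonic, 25.0% of basal and 54.5% of luminal wells, and Id4 without Id3 in 4, 44 and 6 wells.

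**Figure D4:**
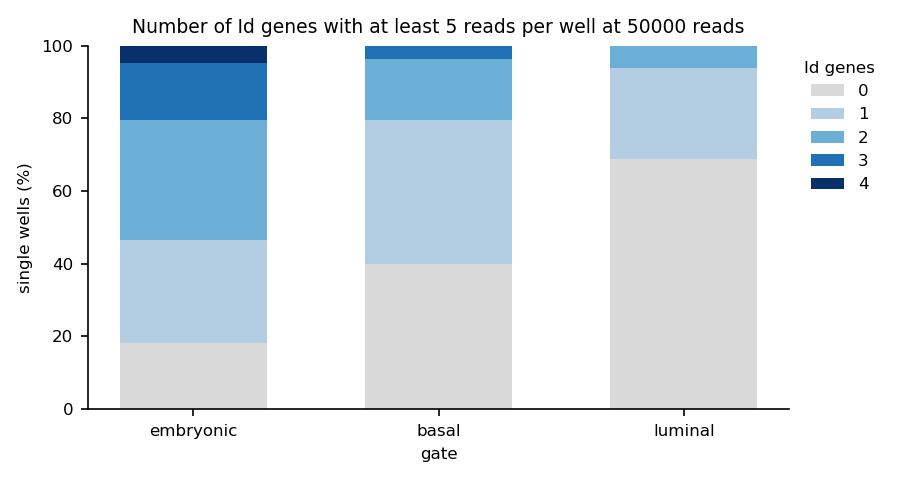
Share of single wells with 0 to 4 of the 4 Id genes detected (at least 5 reads at 50000 reads), stacked by gate. No Id gene was detected in 18.1% of embryonic, 39.8% of basal and 68.8% of luminal wells.

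Embryonic wells with fibroblast markers differed from the other embryonic wells in several members besides Bmp4. Bmp2 was at 7.18 CPM in the 22 wells and 28.7 in the others, Bmp7 at 60.8 and 154, Id1 at 34.4 and 120.4, Id3 at 442 and 932, and Id4 at 20.9 and 55.3. Bmpr2 was at 292 CPM in the 22 wells and 206 in the others, and Bmpr1a at 159 and 179. Bmp4 and Bmpr2 were thus the genes with the higher level in the marked wells. Without them the embryonic levels of Id3 and Bmp7 were higher, and embryonic cells were 4.88-fold above basal cells in Id3 and 2.97-fold in Bmp7, with the marked basal wells left out too. The part of these wells in the remaining differences was not tested.

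Luminal wells form a hormone-sensing and a secretory side in the adult gland, and they were split by the mean log2(CPM + 1) of 8 hormone-sensing markers minus that of 9 secretory markers. The split is a range of a score and not a cell type: 47 wells were above 1, 63 below -1 and 2 between, and 2 wells lay near the limits. Id3 and Id2 differed between the sides in opposite directions. Id3 was at 149 CPM on the hormone-sensing side, with reads in 21 of 47 wells, and at 11.2 CPM on the secretory side, with reads in 10 of 63 wells, a 13.3-fold difference (12.02 to 14.8). Id2 was at 10.7 CPM in 8 hormone-sensing wells and 124.9 CPM in 32 secretory wells, 11.7-fold higher on the secretory side (10.5 to 13.1). Bmp2 had no read on the hormone-sensing side and 20.2 CPM in 11 wells on the secretory side. At equal depth it was detected in 0 and 5 wells, so the difference rests on few wells and no fold is given. A single well held 59.5% of these Bmp2 reads, and 8.18 CPM remained with its reads taken out. The receptor genes were close to each other, with Bmpr1a at 134.5 and 94.6 CPM and Bmpr2 at 134.6 and 122.7 CPM. All luminal Bmpr1b reads came from 3 wells on the hormone-sensing side. Id1 was at 4.21 and 17.6 CPM, but 1 well held 86.8% of the secretory reads and without them 2.33 CPM remained. Id4 was low on both sides, at 2.66 CPM from 1 hormone-sensing well and 5.41 CPM from 10 secretory wells. Median depth was 808345 reads on the hormone-sensing and 482621 on the secretory side, and at equal depth Id3 was detected in 12 and 3 wells and Id2 in 2 and 18 wells.

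**Figure D5:**
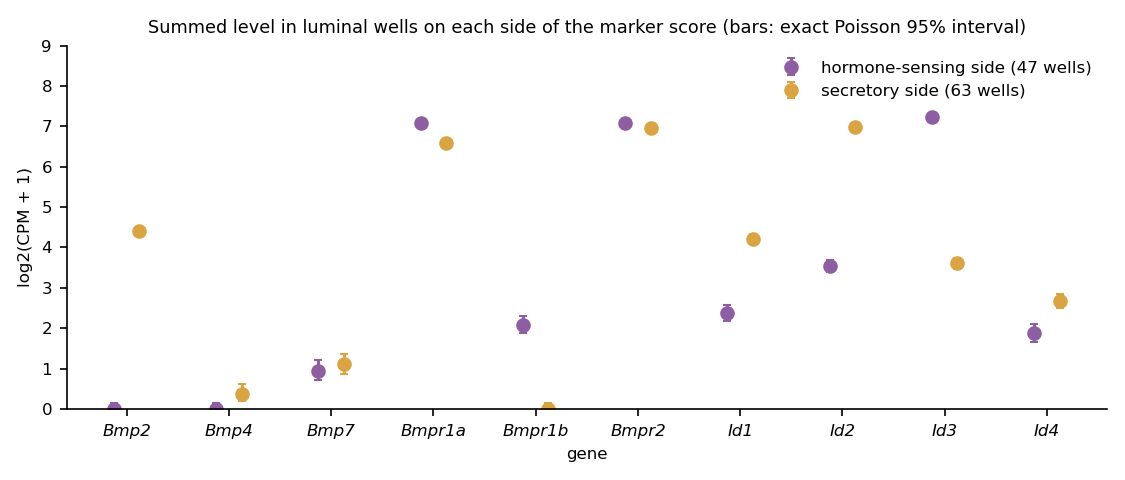
Summed level of each gene, as log2(CPM + 1), in luminal wells on the hormone-sensing side (47 wells) and the secretory side (63 wells) of the marker score, with exact 95% Poisson intervals that are mostly smaller than the symbols. Id3 is at 149 against 11.2 CPM, Id2 at 10.7 against 124.9 CPM and Bmp2 at 0 against 20.2 CPM.

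The rest of the pathway was described by 44 further genes in 6 roles, a list also chosen with earlier results of these data known. In embryonic against basal cells 29 were measured, of which 12 were at least 2-fold higher in embryonic and 7 in basal cells, where 34.7% and 20.04% of all genes were, with a median log2 ratio of -0.04 against 0.38 over all genes. In embryonic against luminal cells the counts were 19 and 5 of 30, where 40.3% and 18.2% of all genes were, with a median of 1.62 against 0.58 over all genes. Basal cells were higher in 15 and luminal cells in 4 of 26, where 29.3% and 22.1% of all genes were, with a median of 1.25 against 0.14. The medians were the same with genes at 0 reads in 1 gate put at their bound.

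Extracellular inhibitors and modulators were mostly low in luminal cells: 7 of 9 measured were higher in embryonic and 5 of 6 in basal than in luminal cells, where 40.3% and 29.3% of all genes were, and 0 the other way. Fst, the gene of follistatin, which binds activins and some BMPs, was at 575 CPM in basal, 5.75 in embryonic and 5.44 in luminal cells. Bambi, a pseudoreceptor without kinase activity, was at 194 CPM in basal, 17.8 in embryonic and 18.2 in luminal cells. Sostdc1, a secreted BMP and Wnt antagonist, was at 75.4 CPM in embryonic and 87.1 in basal cells, but at 125.4 and 46.5 CPM in the wells of 50 cells. Grem1, a secreted BMP antagonist, was at 13.2 CPM in embryonic cells and Bmper, which modulates BMP outside the cell, at 23.8 CPM, and both were under 1 CPM in the adult gates. Of the 16 embryonic wells with Grem1, 1 held 40.7% of its reads.

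Among the 8 other receptor and co-receptor genes, 3 were higher in embryonic and 4 in basal cells. Over all genes the shares were 34.7% and 20.04%. Tgfbr3, the betaglycan co-receptor, was at 527 CPM in basal, 90.4 in embryonic and 12.3 in luminal cells, and Acvr2a, a type II receptor, at 277, 71.03 and 22.2 CPM. In the wells of 50 cells Acvr2a was at 96.4, 20.9 and 61.9 CPM, so that luminal cells were then above embryonic cells. Acvr2b, another type II receptor, was highest in embryonic cells at 94.96 CPM. Eng, the endoglin co-receptor of endothelial cells, was at 38.3 CPM in basal cells and at 0.678 CPM without the 7 wells with endothelial markers. Of the other type I receptors, Acvr1 was at 85.9 CPM in basal, 43.6 in embryonic and 42.95 in luminal cells. One well held 33.6% of its basal reads, and without that well the basal level was 57.4 CPM. In the wells of 50 cells Acvr1 was at 28.2 CPM in basal, 20.9 in embryonic and 30.0 in luminal cells. Acvrl1 had another order in the sums, at 46.4 CPM in luminal, 21.1 in basal and 1.134 in embryonic cells. It had 1 read each in the luminal and basal wells of 50 cells and 0 in the embryonic one.

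Among the SMAD genes, 4 of 5 measured were within 2-fold in the sums of embryonic against basal cells, where 5803 of 12808 genes were. In the wells of 50 cells 2 of 5 were, where 3348 of 10944 genes were. Smad5 was higher in embryonic cells in the sums, at 166 against 69.5 CPM. Smad4, the common partner, was at 164 CPM in embryonic cells, 208 in basal cells and 124.2 in luminal cells, and Smad1 at 77.9, 59.5 and 74.98 CPM. Smad1 was lowest in embryonic cells in the wells of 50 cells, 4.49-fold higher in basal (2.74 to 7.72) and 2.57-fold higher in luminal cells (1.48 to 4.60). Of the other ligands Bmp1, a protease despite its name, was at 145, 148 and 50.4 CPM, but 4.17-fold higher in embryonic than in basal cells (2.25 to 8.31) in the wells of 50 cells, and Bmp3 was at 33.3 CPM in luminal cells, of which 1 well held 64.3%. Bmp5, Gdf5 and Gdf7 had no read in any gate. Among other targets Hey1, a Notch and BMP target, was at 169.8 CPM in luminal, 15.2 in basal and 10.0 in embryonic cells, and in luminal wells it was at 329 CPM on the secretory and 4.36 CPM on the hormone-sensing side. The E protein genes, whose products Id proteins bind, were all at least 2-fold higher in embryonic cells than in either adult gate. Over all genes 34.7% were higher in embryonic than in basal cells and 40.3% in embryonic than in luminal cells. Tcf4 was at 690.0 CPM in embryonic cells, 238 in basal cells and 107.5 in luminal cells, Tcf12 at 304, 102.8 and 96.1 CPM and Tcf3 at 159, 20.6 and 21.1 CPM. In the wells of 50 cells only Tcf3 of these was 2-fold higher in embryonic than in basal cells.

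The genes most like each member were sought over all 347 wells, as Pearson's r of log2(CPM + 1) with each gate's mean subtracted, among genes with a read in at least 20% of wells. No gene reached the limit of 0.4 for any member. The highest value per member ran from 0.248 for Bmp2 to 0.384 for Id4, and wells share depth as well as gene content. Among the members themselves the highest r was 0.288, between Id1 and Id3, with 0.359 in embryonic, 0.283 in basal and 0.179 in luminal wells. Id3 and Id4 gave 0.046. These values are small in sparse counts and are given as a description.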

How the data were processed

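The deposited values are read counts, 1 row per gene (49585) or spike-in (92) and 1 column for each of 384 wells. Tools named in the submitters' processing notes are cutadapt 1.13, STAR 2.5.2b and HTSeq 0.6.0, and the genome named there is GRCm38. Neither annotation nor strand mode is given in the sources used here. Reads of overlapping genes may therefore be shared.

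Wells were grouped by their labels. Identifiers were matched to GENCODE M21, 49326 of them (5577 without the version), and 259 were not matched. Reads were summed over wells with at least 50000 gene reads (127 embryonic, 108 basal and 112 luminal) and scaled to CPM. Folds are ratios of CPM with exact conditional 95% intervals. Log2 ratios used a prior of 1 CPM, and counts at 2-fold used a minimum of 5 CPM. Against 0 reads a fold was bounded with 3 reads. Such a bound covers the counting of reads only and not which cells were sampled. Shares came from wells thinned to 50000 reads, with Clopper-Pearson intervals. No doublet caller was run. All members were named, but only some of the list genes at 5 CPM or more. Among those left out, Fstl1 was at 441, 521 and 6.22 CPM in embryonic, basal and luminal cells. Twsg1, also left out, was at 253, 301 and 116.4 CPM. Rgma, Msx1 and Dlx3 were not named either. The ratios were tested on simulated Poisson reads of gate sums with set changes. These held no variation between wells and no amplification, so they do not test the folds against either. Scripts used Python 3.11.15, scipy 1.17.1 and edgeR 4.0.16 (TMM factors only). The members and lists were chosen with earlier results of these data known.

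For marker lists not described in the text, summed levels in embryonic, basal and luminal cells were 8.02, 2.68 and 1.98 CPM for immune, 85.4, 122 and 55.7 for pericyte, 6.23, 114.6 and 36.7 for melanocyte or Schwann, 2.86, 3.70 and 0 for dermal condensate, 52.4, 1.23 and 1.77 for hair placode, 69.2, 7.13 and 11.0 for suprabasal epidermis, and 0, 0.330 and 0 for skeletal muscle markers.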

Additional observations from a re-analysis of the deposited data

Results flagged for a closer look

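One well is titled luminal while its sort label is that of the embryonic gate, and it entered no comparison. It held 774060 reads on genes. Reads of 3 BMP genes were found there, against 0 in the wells without a cell. Those wells held only 34 to 563 reads, so their 0 sets no limit for this well. Bmp2 had 8 reads, Bmpr2 had 24 reads and Id2 had 826 reads (1067 CPM). The other 7 members had no read there.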

How the results depend on the processing

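Of the 30 log2 ratios of members between gates, 20 kept their sign under all alternatives and 10 did not. With spike-in reads as total, 8 members were higher in embryonic than in basal cells and 1 in basal cells. In basal against luminal cells 4 were higher in basal cells. Of list genes, 19 were higher in embryonic than in basal cells. Of all genes, 8816 were higher in embryonic and 1303 in basal cells. In basal against luminal cells 2165 genes were higher in basal and 4898 in luminal cells. The count of members higher in basal than in embryonic cells was 1 when wells matching another gate, these and the marked wells together (chosen after seeing the data), or the top well of each gene were left out. With no minimum level, 20 list genes were higher in embryonic than in basal, 29 in embryonic than in luminal and 8 in luminal than in basal cells. List genes higher in luminal than in embryonic cells were 3 in the wells of 50 cells and 3 without top wells, and those higher in luminal than in basal cells were 1 in the wells of 50 cells. Without top wells 0 members were counted as higher in luminal than in basal cells, because Bmp2 then fell under the minimum of 5 CPM. It was still at 4.20 CPM in luminal and 0 CPM in basal cells. Gates lay in blocks of plate rows. In the rows that held both gates (24 basal and 17 luminal wells) 4 members were higher in basal and 2 in luminal cells. No share over all genes is given for these rows, nor for the counts with no minimum level.

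Of these 10, 4 were under 2-fold as reported, among them Bmpr1a (-0.24 in the wells of 50 cells) and Bmpr2 (1.12 with spike-in reads) in embryonic against basal cells. Of ratios at 2-fold or more, those that changed sign in embryonic against basal cells were Bmpr1b, at 4.34 in the wells of 50 cells, 1.27 without wells matching another gate and 1.38 without these and the marked wells, and Id1, at -1.21 in the wells of 50 cells. In basal against luminal cells Bmpr1b was at -2.25 in the wells of 50 cells, -1.38 without wells matching another gate, -1.38 without these and the marked wells and -1.16 in shared rows, where Id1 was at -1.36, Id2 at -0.96 and Id3 at -0.75. The cause was not tested. TMM scaling moved the median of all genes from 0.38, 0.58 and 0.14 to 0.07, 0.13 and -0.00, median-of-ratios scaling to 0.02, 0.08 and -0.00, and spike-in reads to 1.68, 1.07 and -0.66. The share of calls higher in the first gate was 63.4%, 69.0% and 57.01% as reported, 53.5%, 56.5% and 52.3% with TMM, 51.9%, 55.03% and 52.4% with median of ratios and 87.1%, 79.5% and 30.7% with spike-ins. No paired analysis was possible because the labels give no replicate numbers and each gate is 1 sample. Depth limits the low genes: 3 reads in a well of 50 cells are 4.82 to 5.63 CPM.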
